A study of Penicillium oxalicum with 6 samples.

Results

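Genes of starch breakdown were followed in mycelium of the filamentous fungus Penicillium oxalicum: POX01356, listed as the glucoamylase GA15A, POX02412, listed as an amylase, and POX09352, listed as the alpha-amylase Amy13A. They were taken by gene ID and were all found among the 9834 genes of the deposited tables. The tables give IDs alone, so these names come with the list of IDs and could not be checked against the files. None of the 9834 IDs matched an entry of the RefSeq gene table of this species, and no sequence is printed for the 3 genes.

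Fungi that grow on plant material secrete several enzymes that act together on starch. Alpha-amylases cut the chains of glucose units at internal bonds, and glucoamylases release single glucose units from the chain ends. In Aspergillus species, genes of both kinds are switched on through the transcription factor AmyR when starch or maltose is present. Neither enzyme acts on cellulose, whose glucose units are joined by another kind of bond.

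RNA was sequenced from 6 libraries of the strain labelled MuKu70, a mutant in Ku70, a gene of DNA end joining that is often removed to ease gene targeting. Of these, 3 libraries carry the label of medium with 1% Avicel, a microcrystalline cellulose, and the other 3 that of medium with 1% wheat bran, all 4 hours after hyphae were moved into it. The title of the series speaks instead of a deletion mutant of POX07277 moved from glucose to Avicel for 24 hours. Labels and title thus disagree on strain, medium and time. Which of them describes these libraries was not settled here, and the labels are not taken as the better account. Replicates carry the letters F, S and T. No label ties them to separate cultures, and the p-values below therefore reflect library-to-library spread that may be technical. Expected counts, the estimated number of reads per gene, totalled 13176152 to 14598919 per library.

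Counts of the gene named in the title were found only in the libraries labelled Avicel. POX07277 had 331 to 427 counts per library labelled Avicel and 0 in every one labelled wheat bran, where a floor of 3 counts allows at most 0.220 to 0.228 CPM (counts per 1000000). The groups are therefore called by their labels, and strain, medium and preparation cannot be told apart as the source of any difference between them. Replicate F labelled Avicel stood apart from S and T on principal component 2 (22.4 against -9.56 and -12.8, with 6.27% of the variance), and results that depend on 1 library are given with and without it.

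The 3 genes differed from each other in how they compared between the groups. The alpha-amylase gene POX09352 was 3.74-fold higher in the libraries labelled Avicel. The glucoamylase gene POX01356 had a 1.53-fold higher level there, which did not pass the test. The amylase gene POX02412 stood at nearly the same level in both groups. Thus 1 of the 3 passed the threshold, an adjusted p under 0.05, against 55.0% of the 8636 tested genes in either direction and 27.5% in the direction of higher levels labelled Avicel.

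**Figure D1:**
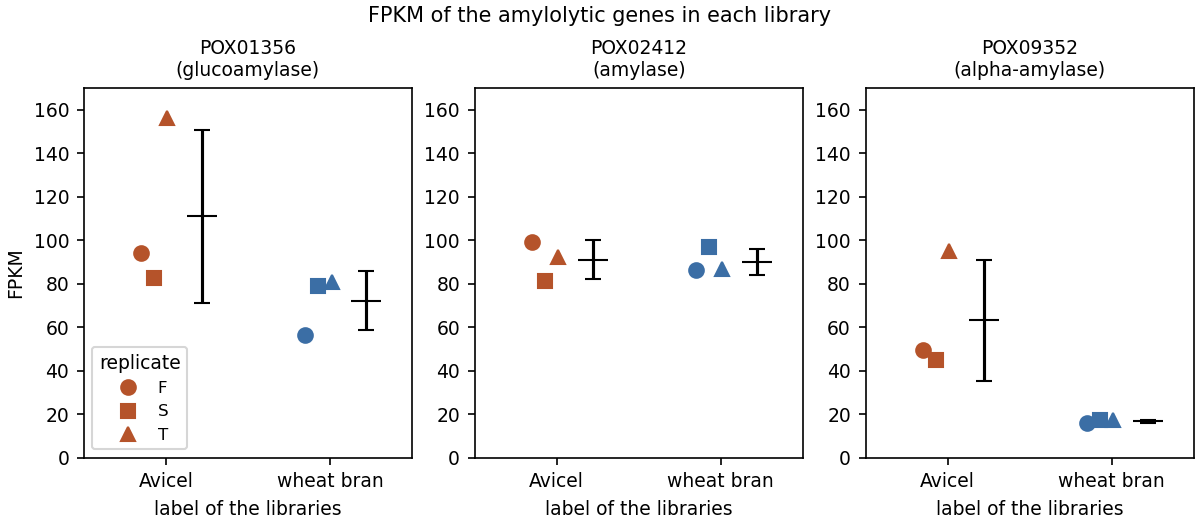
FPKM of the 3 genes (vertical axis) in each library, by label (horizontal axis); symbols mark replicates F, S and T, and the bar beside them gives the mean ± SD of 3 libraries. POX09352 is higher in every library labelled Avicel, POX02412 overlaps between the labels, and replicate T labelled Avicel is the highest point for POX01356 and POX09352.

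POX09352, listed as the alpha-amylase that cuts starch chains internally, had FPKM values (reads scaled to gene length and library) of 49.67, 44.9 and 94.99 in replicates F, S and T of the Avicel label. The wheat bran label gave 16.0, 17.3 and 17.2 in the same order. The groups did not overlap, the wheat bran labelled libraries lay close together, and replicate T stood well above the other two labelled Avicel. These values rest on 1226 to 2568 counts per library labelled Avicel and 400 to 445 per library labelled wheat bran.

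As CPM after TMM normalization, a scaling between libraries, the level of POX09352 was 119 ± 50.6 labelled Avicel and 31.9 ± 1.68 labelled wheat bran (SD, n = 3 each). The log2 fold change was 1.90 (SE 0.27, 95% interval 1.29 to 2.52; edgeR quasi-likelihood test, adjusted p = 0.000663). POX09352 ranked at 175 of the 8636 tested genes for a higher level labelled Avicel. A call of 2-fold or more in that direction was made for 7.03% of them. An exact two-sided permutation test of its 6 FPKM values gave p = 0.1, the smallest that 3 against 3 libraries allow. Without replicate T labelled Avicel the difference was 2.84-fold (edgeR adjusted p = 2.78e-05), so it did not rest on that library.

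POX01356, listed as the glucoamylase that releases glucose from chain ends, had FPKM values of 94.0, 82.8 and 156 in replicates F, S and T of the Avicel label. Under the wheat bran label they were 56.6, 79.1 and 81.0. The groups did not overlap, but the lowest library labelled Avicel exceeded the highest labelled wheat bran by only 1.32% in CPM. Replicate T labelled Avicel was high and replicate F labelled wheat bran was low within their groups.

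The level of POX01356 was 215 ± 74.1 CPM labelled Avicel and 141 ± 27.7 CPM labelled wheat bran (SD, n = 3 each). Its log2 fold change of 0.62 (SE 0.24, 95% interval 0.05 to 1.18) had an unadjusted p of 0.0365 and an adjusted p of 0.0633 in the edgeR quasi-likelihood test. The interval is not adjusted for the number of genes tested, and it reaches from a 1.035-fold to a 2.27-fold higher level. Higher values were fitted for 15% of tested genes. The exact two-sided permutation test of its FPKM gave p = 0.1, the smallest it allows.

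The call for POX01356 depended on the setting. It passed in 4 of 19 alternatives, among them DESeq2 (1.53-fold, adjusted p = 0.0269) and edgeR without replicate F labelled Avicel (1.65-fold, adjusted p = 0.0432) or without S labelled Avicel (1.72-fold, adjusted p = 0.0336). Without replicate T labelled Avicel it was 1.24-fold (edgeR adjusted p = 0.171), and without replicate F labelled wheat bran 1.38-fold (edgeR adjusted p = 0.186). All 19 lie on the side of a higher level labelled Avicel, and their adjusted p ranged from 0.0234 to 0.186.

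POX02412, listed as an amylase, had FPKM values of 99.1, 81.4 and 92.6 in replicates F, S and T of the Avicel label. The wheat bran label gave 86.3, 96.8 and 87.0. The highest and the lowest value were both labelled Avicel, and the groups overlapped fully. Its level was 172 ± 16.5 CPM labelled Avicel and 170 ± 10.4 CPM labelled wheat bran (SD, n = 3 each). The log2 fold change was 0.02 (SE 0.10; edgeR quasi-likelihood test, adjusted p = 0.9), with a 95% interval of 0.866-fold to 1.18-fold. This interval leaves room for a small difference in either direction and excludes one as large as that of POX09352.

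**Figure D2:**
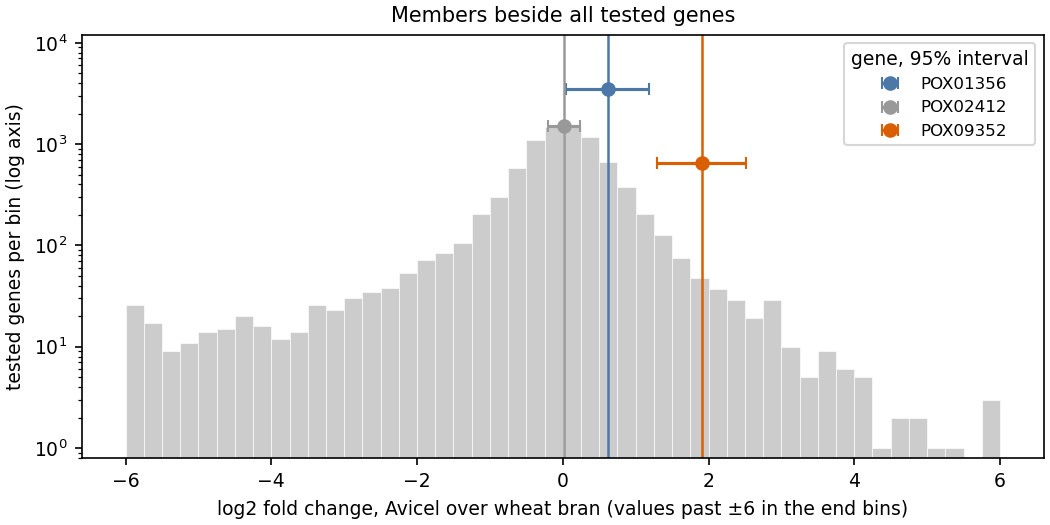
Log2 fold changes of the 8636 tested genes (grey bars; horizontal axis, Avicel over wheat bran; vertical axis, genes per bin, log axis) with the 3 genes as lines and their 95% intervals as bars at arbitrary heights. POX02412 lies at 0.02, near the median of all tested genes of 0.01, POX01356 at 0.62 and POX09352 at 1.90, towards the upper end.

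Read across the 3 genes, every library labelled Avicel lay above every library labelled wheat bran for 2 of them, POX01356 and POX09352, where 32.0% of tested genes did so in that direction. The 3 genes were of like length: the lengths implied by count and FPKM were 1943 bases for POX01356, 1884 for POX02412 and 1893 for POX09352. Tested genes within 0.25 log2 units of these lengths had median log2 fold changes of 0.09 to 0.10. All expected counts of the 3 genes were whole numbers in all 6 libraries, and none showed the fractional values that arise when reads are divided between similar genes. So were 99.2% of all expected counts, and only 109 of the 9834 genes had any fractional value. Reads that were assigned undivided to one of a set of similar genes would leave no such trace.

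Levels per gene length can also be ordered within a group. In the libraries labelled wheat bran the order of mean FPKM was POX02412 (90.0 ± 5.85), POX01356 (72.2 ± 13.5) and POX09352 (16.8 ± 0.717; SD, n = 3 each). POX02412 exceeded POX01356 in each of those 3 libraries, most closely in replicate T, where the ratio of POX01356 to POX02412 was 0.930. POX09352 lay far below both in each of them. In the libraries labelled Avicel the means were 111 ± 39.7 for POX01356, 91.0 ± 8.98 for POX02412 and 63.2 ± 27.7 for POX09352 (SD, n = 3 each). There, neighbours in the order did not all separate beyond their spread: POX02412 exceeded POX01356 in replicate F, and POX09352 exceeded POX02412 in replicate T.

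None of the 3 genes was among the most abundant. By FPKM, POX02412 ranked between 1474 and 1803 of the 9834 genes in every library. POX01356 ranked between 986 and 1769 labelled Avicel and between 1878 and 2614 labelled wheat bran. POX09352 differed most in rank between the labels, at 5648 to 5956 labelled wheat bran and 1605 to 3023 labelled Avicel.

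The proportions of the 3 transcripts were then compared within each library, where depth cancels out. The FPKM ratio of glucoamylase gene POX01356 to alpha-amylase gene POX09352 was 1.89, 1.84 and 1.65 in F, S and T labelled Avicel. Under the wheat bran label it was 3.54, 4.58 and 4.71. The groups did not overlap, and the spread within each was small: the mean log2 ratio was 0.84 ± 0.11 against 2.08 ± 0.23 (SD, n = 3 each). The difference of -1.24 log2 units gave p = 0.1 in an exact two-sided permutation test, the smallest it allows.

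The ratio of POX02412 to POX09352 separated the groups by more. It was 1.996, 1.81 and 0.9748 in F, S and T labelled Avicel, against 5.40, 5.604 and 5.06 labelled wheat bran, a difference of -1.81 log2 units (exact two-sided permutation p = 0.1). The ratio of POX01356 to POX02412 separated them by less, with 0.948, 1.02 and 1.69 labelled Avicel and 0.656, 0.817 and 0.930 labelled wheat bran. Its difference of 0.57 log2 units (exact two-sided permutation p = 0.1) is close to its SD of 0.45 labelled Avicel. Without replicate T labelled Avicel that difference was 0.31 log2 units (exact two-sided permutation p = 0.2). Adjusted over the 3 ratios by Benjamini-Hochberg, each p stayed at 0.1, and no ratio can pass 0.05 with this number of libraries.

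**Figure D3:**
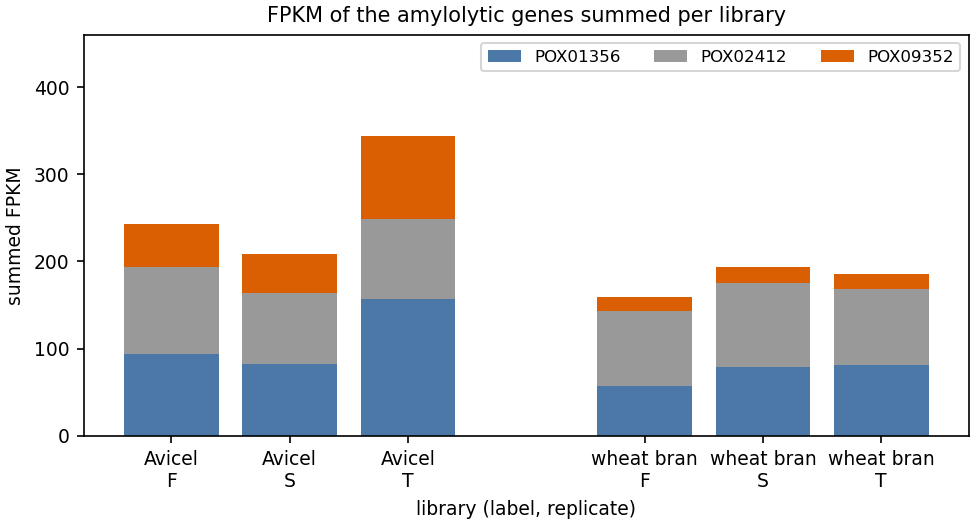
FPKM of the 3 genes stacked for each library (vertical axis, summed FPKM; horizontal axis, label and replicate). The sum is 209 to 344 labelled Avicel and 159 to 193 labelled wheat bran, and the top segment, POX09352, is wider in every library labelled Avicel.

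Together the 3 genes took a very small part of each library. Their share of all expected counts was 0.0463% (95% Wilson interval 0.0452% to 0.0474%), 0.0398% (0.0388% to 0.0409%) and 0.0657% (0.0644% to 0.0670%) in F, S and T of the Avicel label. It was 0.0304% (0.0294% to 0.0313%), 0.0369% (0.0359% to 0.0380%) and 0.0354% (0.0345% to 0.0365%) in F, S and T labelled wheat bran. These intervals cover counting error only. The group means were 0.0506% ± 0.0135 and 0.0343% ± 0.00345 (SD, n = 3 each), and the exact two-sided permutation test gave p = 0.1, the smallest it allows. The difference of 0.0163 percentage points became 0.00879 without replicate T labelled Avicel. Within the summed FPKM, POX09352 made up 23.2% ± 3.87 labelled Avicel and 9.43% ± 0.574 labelled wheat bran. POX02412 made up 35.6% ± 7.55 and 50.5% ± 3.67, and POX01356 41.3% ± 3.68 and 40.1% ± 4.11 (SD, n = 3 each).

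The genes also differed in their spread within a group. The coefficient of variation of CPM labelled Avicel was 42.4% for POX09352 and 34.4% for POX01356, but 9.62% for POX02412. Counting error alone would give 1.79% to 2.41% for these genes. Among 4529 genes with group means of 25 to 400 CPM, a range set after the values were seen, the median labelled Avicel was 7.91%, and 1.17% of them varied more than POX09352 and 2.74% more than POX01356. Labelled wheat bran, POX09352 varied by 5.26% and POX02412 by 6.13%, near the median of 6.14%, while POX01356 varied by 19.7%, which 3.00% of these genes exceeded.

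Replicate T was the highest library labelled Avicel for both of the genes with the wide spread. Relative to the geometric mean of F and S, it was 1.97-fold higher for POX09352 and 1.74-fold higher for POX01356, and 1.01-fold for POX02412. Of the 4529 genes of like level, 1.88% were at least 1.5-fold higher in this library, with a median of 0.992-fold. The glucoamylase and the alpha-amylase gene thus deviated in the same direction in the same library, and the amylase gene POX02412 did not. In the libraries labelled wheat bran they did not share a deviation of this size: replicate F was at 0.696 of the other two for POX01356 and at 0.913 for POX09352. What set replicate T apart for these genes was not tested.

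The genes with neighbouring ID numbers were examined next, 5 below and 5 above each gene. ID numbers stand in for order here, as the positions of these genes were not used. Their calls are to be read against the 55.0% of all tested genes called in either direction and the 16.4% called at 2-fold or more. Around POX01356, 6 of the 10 neighbours were tested, 1 was called higher and 2 lower labelled Avicel, and none changed 2-fold. The fitted log2 fold changes ran from -0.47 to 0.42.

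Around POX02412, 8 neighbours were tested and 2 were called, both lower labelled Avicel. POX02414 had 266 ± 57.9 CPM labelled wheat bran and 19.2 ± 6.93 labelled Avicel (SD, n = 3 each, log2 fold change -3.79, SE 0.29, edgeR adjusted p = 3.62e-05). POX02415 had 40.5 ± 2.75 CPM labelled wheat bran and 5.92 ± 1.83 labelled Avicel (SD, n = 3 each, log2 fold change -2.77, SE 0.20, adjusted p = 2.64e-05 with edgeR). The level of POX02412 itself, 2 and 3 numbers away, was almost equal between the groups.

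Around POX09352, 7 neighbours were tested, and all 5 with higher numbers, POX09353 to POX09357, were called 2-fold or more higher labelled Avicel. POX09352 had the smallest log2 fold change of these 6 consecutive genes, at 1.90 (SE 0.27). That of POX09353 was close to it, at 2.07 (SE 0.21). The largest was that of POX09355, at 1176 ± 133 CPM labelled Avicel and 72.5 ± 0.678 labelled wheat bran (SD, n = 3 each; log2 fold change 4.02, SE 0.12; adjusted p = 7.59e-07 with edgeR). The gene 1 number below, POX09351, differed in the other direction. It had 17.3 ± 3.602 CPM labelled wheat bran and 4.00 ± 0.778 labelled Avicel (SD, n = 3 each, log2 fold change -2.11, SE 0.21, adjusted p = 0.000117 with edgeR). POX09352 was thus the first of the 6 by number, next to a gene with the opposite direction.

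**Figure D4:**
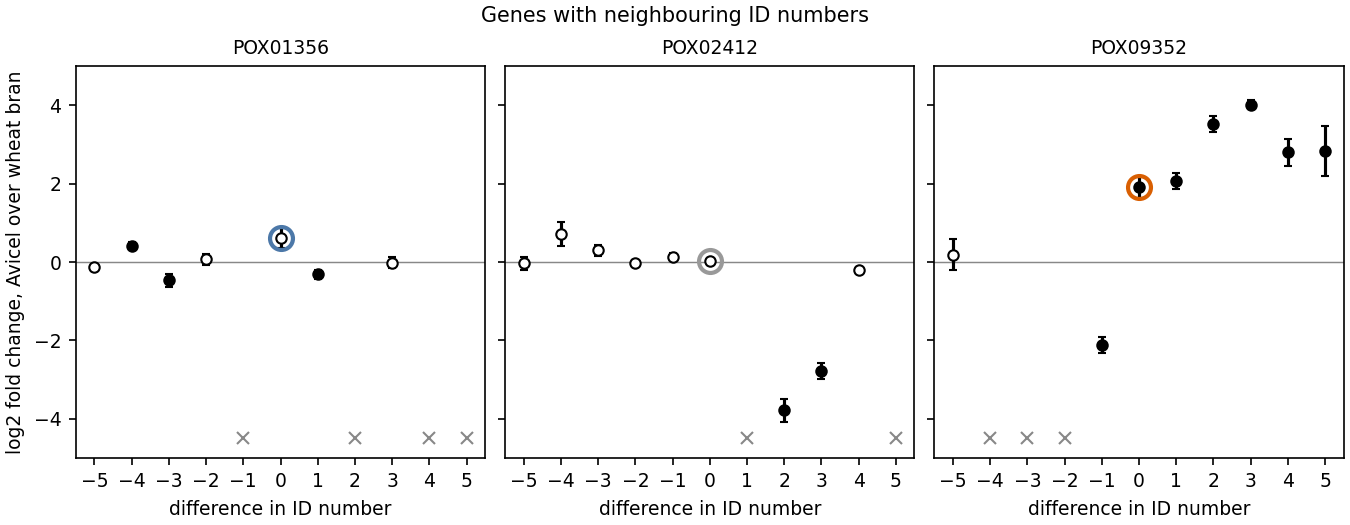
Log2 fold changes (vertical axis, Avicel over wheat bran) of genes up to 5 ID numbers from each of the 3 genes (horizontal axis, difference in ID number). Bars give the SE, filled points have an edgeR adjusted p under 0.05, the ring marks the gene itself and crosses at the bottom mark untested genes; the values above POX09352 lie between 2.07 and 4.02, and the one below it at -2.11.

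The 6 consecutive genes did not share one pattern over the replicates labelled Avicel. Replicate T exceeded the geometric mean of F and S 1.97-fold for POX09352, 1.57-fold for POX09353 and 2.19-fold for POX09356. It was at 0.806 of that mean for POX09354, 0.919 for POX09355 and 0.729 for POX09357. POX09357 was instead highest in replicate F, at 173 CPM against 28.8 in S and 51.5 in T. Also highest in F were POX09354, with 301, 191 and 193 CPM in F, S and T, and POX09355, with 1329, 1091 and 1107.

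For each of the 3 genes, the tested genes most like it were listed by the root mean square difference of centred log2(CPM + 1) over the 6 libraries, among 6942 genes with a mean FPKM of at least 10. For POX01356 they were POX03890 (difference 0.18), POX00830 (0.18) and POX03464 (0.19), all with their highest value in replicate T labelled Avicel. POX03890, for example, had 35.5, 39.1 and 55.6 CPM in F, S and T of the Avicel label and 25.5, 39.6 and 36.7 labelled wheat bran, so its groups overlapped. Its log2 fold change was 0.36 (SE 0.21; edgeR quasi-likelihood test, adjusted p = 0.19). The other two passed the same test, POX00830 at a log2 fold change of 0.55 (SE 0.17, adjusted p = 0.0269) and POX03464 at 0.62 (SE 0.18, adjusted p = 0.022).

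For POX09352 the most alike were POX03933 (0.17), POX01926 (0.22) and its neighbour by number POX09353 (0.24). POX03933 had 14.6, 13.9 and 24.2 CPM in F, S and T of the Avicel label and 5.17, 5.02 and 5.73 labelled wheat bran, again with replicate T highest. For POX02412 they were POX02286 (0.032), POX03219 (0.034) and POX02971 (0.034), none of which passed the edgeR test (adjusted p of 0.903, 0.574 and 0.952). The median difference over these candidates was 0.48 for POX01356, 0.97 for POX09352 and 0.24 for POX02412. None of the 3 genes was listed as most like another of them, so their differences from each other exceed the listed ones by construction. These were 0.41 between POX01356 and POX02412, 0.62 between POX01356 and POX09352 and 0.95 between POX02412 and POX09352. The measure describes 6 libraries from 2 groups, and these IDs carry no names in the tables. The listed genes were picked for likeness over these same libraries. Their fold changes, calls and replicate patterns therefore largely follow from the choice.

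**Figure D5:**
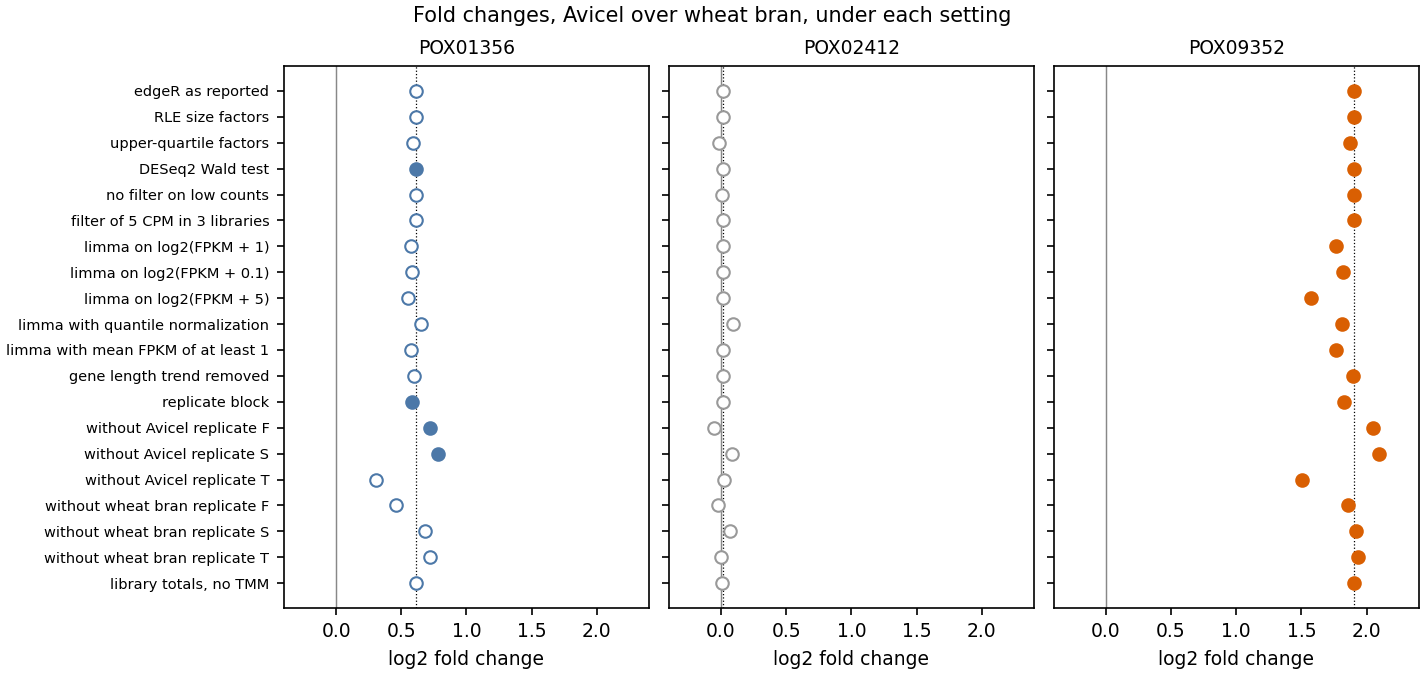
Log2 fold change of each gene (horizontal axis, Avicel over wheat bran) under the reported setting and 19 alternatives (vertical axis); filled points have an adjusted p under 0.05, the grey line marks 0 and the dotted line the reported value. POX09352 stays between 1.51 and 2.09 and POX02412 between -0.05 and 0.09, while POX01356 runs from 0.31 to 0.78 and passes under 4 of the alternatives.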

How the data were processed

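RSEM 1.2.12, BWA 0.7.10-r789, DESeq2 and Bowtie2 2.1.0 are listed, without roles, in the submitters' processing notes. Genome build, annotation and strand handling: not given in the sources used here. Per the file headers, the deposited values are an expected count per gene, which is an estimated and unnormalized count, and an FPKM value scaled by the authors. The TPM of 1 table was not used. Of the expected counts, 99.2% were whole. They were rounded and tested across 8636 genes (1198 removed by filterByExpr) with edgeR 4.0.16 in R 4.3.3 (TMM, two-sided quasi-likelihood F-test, threshold 0.05 after Benjamini-Hochberg adjustment over all tested genes). The fit was first tested on simulated data. SEs were derived from the F statistic. Alternatives used DESeq2 1.42.0 and limma 3.58.1 on log2(FPKM + pseudocount).

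Genes named beside the 3 members were POX07277, the 3 genes most like each member, and those within 5 ID numbers of a member that changed 2-fold or more. Values of other genes numbered 9352 to 9357 were shown after they were seen. The members and lists were chosen with earlier results of these data known. No other genes of starch metabolism were analysed here, since the IDs carry no names. Wilson intervals are at 95%.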

Additional observations from a re-analysis of the deposited data

How the results depend on the processing

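POX09352 kept its direction and call in all 19 alternatives (log2 fold change 1.51 to 2.09 with each library left out). POX01356 kept its direction in all 19 and passed in 4: with DESeq2 (0.61), with the letter as a replicate block (0.58, adjusted p = 0.0234), and without replicate F or S labelled Avicel; with each library left out it ran from 0.31 to 0.78. POX02412 passed in none and turned sign with upper-quartile factors (-0.0144), without replicate F labelled Avicel (-0.0530) and without replicate F labelled wheat bran (-0.0228); with each library left out it ran from -0.0530 to 0.0854. The cause was not tested. Within-group deviations of libraries sharing a letter had r = 0.19 (F), -0.10 (S) and 0.23 (T). Libraries whose letters differ gave r from -0.30 up to 0.20. The value of T was above that range, that of F near its top and that of S inside it. Whether the letters pair the libraries was not tested further, and these values do not decide it. The block changed no other call of the 3 genes. Calls across all tested genes numbered 1420 (2-fold or more) and 519 (4-fold or more). They numbered 889 and 282 with limma on log2(FPKM + 5), a pseudocount that by construction shrinks folds of low genes; the other 19 alternatives stayed within 1.5 times. The summed share and the 3 ratios kept their direction with each library left out. At 400 to 4342 counts per gene and library, counting error was below the spread between libraries for POX01356, POX02412 and POX09352 in each group. The margin was small for POX09352 labelled wheat bran, with 4.83% from counting against a coefficient of variation of 5.26%.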
